A study of Mus musculus with 8 samples.

Results

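The genes described here are 8 genes of mucous gland secretion: Tff2, Gkn3, Muc6, A4gnt, Aqp5, Wfdc2, Wfdc18 and Egf. They were taken as the probes whose gene name in the array files is one of these symbols, which gave 9 probes for 7 genes, of 39429 probes in all. No probe carries the name Muc6. A probe described in the files as mucin 6, gastric, is named there by an Ensembl transcript identifier, so it is given below beside the genes and not counted among them. All 7 genes passed the filter on dim probes, among 21806 genes that did. The genes were chosen by their low processed signal on the arrays of FGF1/CPP-C-treated mice, so their values on those arrays are given as a description, without a test.

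The mice were female, of the strain BALB/cA Jcl and 8 weeks old, and small intestine was taken 4 h after carbon-ion exposure, or after none in the 0 Gy group, while the design text speaks of jejunum. The groups, of 2 arrays each, were FGF1/CPP-C with 8 Gy, FGF1 (fibroblast growth factor 1) with 8 Gy, saline with 8 Gy and saline with 0 Gy. FGF1/CPP-C is called a chimera protein in the series title. All agents were injected into the peritoneum, and the design text gives a pretreatment of 12 h. The replicates numbered 1 share slide 1 and those numbered 2 share slide 2. Nothing in the labels ties an array to an animal, so p-values rest on a spread between arrays that may not be a spread between animals.

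Brunner glands lie beneath the mucosa of the proximal duodenum and secrete alkaline mucus that coats the epithelium against gastric acid. Their mucus is built from the gel-forming mucin MUC6, whose sugar chains are capped by the product of A4gnt, together with the trefoil peptide TFF2. The mucous gland cells of the gastric antrum make much of the same set, so these genes alone do not name the organ that they came from. In whole tissue, fewer cells of a type and less RNA per cell cannot be told apart.

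The probes measure short stretches of each transcript, and 4 of them are shown as examples, for the trefoil peptide, the gastrokine, the sugar-chain enzyme and the water channel of the set. Each of these reads an open frame over its length or up to a stop triplet. Each is 60 bases long, written 5′ to 3′ as in the array files, and capitals mark the stop triplet in the Gkn3 probe. In the mouse build mm9 given in the files, the Gkn3 probe lies on the minus strand at chr6:87333375-87333434, the A4gnt probe on the plus strand at chr9:99521093-99521152 and the Aqp5 probe shown here, the dimmer of its pair, on the plus strand at chr15:99424655-99424714. The files give no position for the Tff2 probe, and RefSeq places the gene on chromosome 17.
Tff2: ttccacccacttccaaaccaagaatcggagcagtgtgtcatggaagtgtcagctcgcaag
Gkn3: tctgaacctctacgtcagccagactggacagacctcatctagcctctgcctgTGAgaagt
A4gnt: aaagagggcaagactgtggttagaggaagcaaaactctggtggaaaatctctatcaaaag
Aqp5: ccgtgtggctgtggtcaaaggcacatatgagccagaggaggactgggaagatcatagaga

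The 75th percentile of the processed signal, an intensity on a linear scale, ranged from 1735 to 2165 over the 8 arrays. Between 66.9% and 71.1% of probes were well above background, the scanner software's mark for a signal clearly over its surroundings. Across genes, replicates correlated best for FGF1/CPP-C (r = 0.9935) and least for 8 Gy saline (r = 0.982). Below, a level is the processed signal, or its log2 relative to the array's 75th percentile, with a floor of -6.74. The number of arrays limits the precision of every value.

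Of the 7 genes, 6 lay lower on both FGF1/CPP-C arrays than on each of the other 6 arrays, and 5 of these stood apart by over 6 log2 units. Egf was the exception. The same order of arrays held for 2179 of 21799 genes, 10%. A distance of at least 5 log2 units between the FGF1/CPP-C arrays and the lowest other array was seen for 9 genes of the whole array, 5 of them Tff2, Gkn3, Wfdc18, Aqp5 and Wfdc2. Since the genes were chosen for these low values, nothing is read from the counts.

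Tff2 encodes trefoil factor 2, a small secreted peptide that binds and stiffens mucus and takes part in epithelial repair. Its processed signal was 29.5 and 8.28 on the FGF1/CPP-C arrays, 853210 and 579270 on the FGF1 arrays, 577414 and 862087 on the 8 Gy saline arrays, and 866851 and 879302 on the 0 Gy saline arrays. Neither FGF1/CPP-C array was well above background, while FGF1 replicate 1, 8 Gy saline replicate 2 and both 0 Gy saline arrays were saturated, so every fold is a bound. Each such bound is 2 to the power of the difference in mean log2 level between the bright and the dim arrays. A dim array that lay below the floor was set to it. The other folds below were formed from mean log2 levels in the same way. The floor is the highest, over the 8 arrays, of each array's lowest signal well above background. Tff2 was at least 28100-fold lower with FGF1/CPP-C than with 8 Gy saline, at least 28100-fold lower than with FGF1 and at least 40300-fold lower than with 0 Gy saline. The log2 difference from 8 Gy saline was -14.18 on slide 1 and -15.38 on slide 2.

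Gkn3 encodes gastrokine 3, a secreted protein of gastric mucous gland cells in the mouse. Its signal was 607 and 567 on the FGF1/CPP-C arrays, 616026 and 299616 on the FGF1 arrays, 294414 and 602656 on the 8 Gy saline arrays, and 617992 and 519533 on the 0 Gy saline arrays. All 8 arrays were well above background, so a residual signal was measured with FGF1/CPP-C, and FGF1 replicate 1, 8 Gy saline replicate 2 and 0 Gy saline replicate 1 were saturated. Each of the other groups thus has 1 saturated array, kept at its value, and the folds are lower limits. Gkn3 was at least 672-fold lower with FGF1/CPP-C than with 8 Gy saline, at least 688-fold lower than with FGF1 and at least 1050-fold lower than with 0 Gy saline. Its log2 difference from 8 Gy saline was -8.84 on slide 1 and -9.94 on slide 2.

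The probe described as mucin 6, the gel-forming mucin of these glands, gave 2.8 and -0.322 on the FGF1/CPP-C arrays, 76327 and 11354 on the FGF1 arrays, 9920 and 108980 on the 8 Gy saline arrays, and 67856 and 18423 on the 0 Gy saline arrays. The FGF1/CPP-C arrays were not well above background and did not overlap with the others, which themselves spread widely within each group. It was at least 1680-fold lower with FGF1/CPP-C than with 8 Gy saline, at least 1510-fold lower than with FGF1 and at least 2100-fold lower than with 0 Gy saline. Its log2 differences from 8 Gy saline were -9.03 on slide 1 and -12.39 on slide 2.

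A4gnt encodes the transferase that adds alpha-linked N-acetylglucosamine to the ends of the mucin sugar chains. It gave 38.7 and 5.02 on the FGF1/CPP-C arrays, 766 and 147 on the FGF1 arrays, 121 and 1516 on the 8 Gy saline arrays, and 1117 and 350 on the 0 Gy saline arrays. FGF1/CPP-C replicate 2 alone was not well above background. The gap between the FGF1/CPP-C arrays and the lowest other array, 8 Gy saline replicate 1, was 1.57 log2 units, smaller than the 3.55 that the other 6 arrays spanned. Its mean level was 14.9-fold lower than with 8 Gy saline, 11.7-fold lower than with FGF1 and 25.3-fold lower than with 0 Gy saline. These sizes are uncertain, as FGF1/CPP-C replicate 2 was set to the floor. The log2 difference from 8 Gy saline was -1.57 on slide 1 and -6.23 on slide 2. In the same order it was -4.15 and -2.95 from FGF1, and -4.89 and -4.43 from 0 Gy saline.

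Aqp5 encodes a water channel of the apical membrane of secretory gland cells. Its brighter probe gave 16.5 and 18.7 on the FGF1/CPP-C arrays, 11362 and 2120 on the FGF1 arrays, 1831 and 20409 on the 8 Gy saline arrays, and 17445 and 4143 on the 0 Gy saline arrays. The FGF1/CPP-C arrays were not well above background and no other array came near them. By this probe Aqp5 was at least 312-fold lower with FGF1/CPP-C than with 8 Gy saline, at least 252-fold lower than with FGF1 and at least 504-fold lower than with 0 Gy saline. The dimmer probe, whose sequence is shown above, was 26.0-fold, 22.3-fold and 45.0-fold lower in the same comparisons, and on FGF1/CPP-C replicate 2 it was not well above background, so these sizes are uncertain. The probes correlated with r = 0.978 over the 8 arrays.

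Wfdc2 and Wfdc18 encode small secreted proteins with whey acidic protein domains, a fold shared with protease inhibitors. The brighter Wfdc2 probe gave 18.6 and 7.74 on the FGF1/CPP-C arrays, 13389 and 1849 on the FGF1 arrays, 1632 and 23196 on the 8 Gy saline arrays, and 13235 and 3175 on the 0 Gy saline arrays. It was not well above background with FGF1/CPP-C. By this probe Wfdc2 was at least 308-fold lower than with 8 Gy saline, at least 250-fold lower than with FGF1 and at least 377-fold lower than with 0 Gy saline. The dimmer Wfdc2 probe was well above background on all 8 arrays and was 105-fold, 81.2-fold and 131-fold lower in the same comparisons, with r = 0.997 between the probes.

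Wfdc18 gave 71.4 and 53.3 on the FGF1/CPP-C arrays, 54524 and 13736 on the FGF1 arrays, 10352 and 88066 on the 8 Gy saline arrays, and 52436 and 18196 on the 0 Gy saline arrays. All of these were well above background, and the groups did not overlap with FGF1/CPP-C. Wfdc18 was 458-fold lower with FGF1/CPP-C than with 8 Gy saline, 417-fold lower than with FGF1 and 544-fold lower than with 0 Gy saline. On slide 1 and slide 2 its log2 differences from 8 Gy saline were -7.10 and -10.58.

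Egf encodes epidermal growth factor, the ligand for which Brunner glands are a known intestinal source. Averaged over those of its 10 spots that had no outlier mark, its signal was 47.0 and 51.4 on the FGF1/CPP-C arrays, 111 and 44.3 on the FGF1 arrays, 50.9 and 145 on the 8 Gy saline arrays, and 119 and 43.9 on the 0 Gy saline arrays. The FGF1/CPP-C arrays lay within the range of the others. The log2 difference from 8 Gy saline was -0.04 on slide 1 and -1.38 on slide 2. Its mean was 1.64-fold lower than with 8 Gy saline, 1.34-fold lower than with FGF1 and 1.60-fold lower than with 0 Gy saline, within the spread of the replicates.

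**Figure D1:**
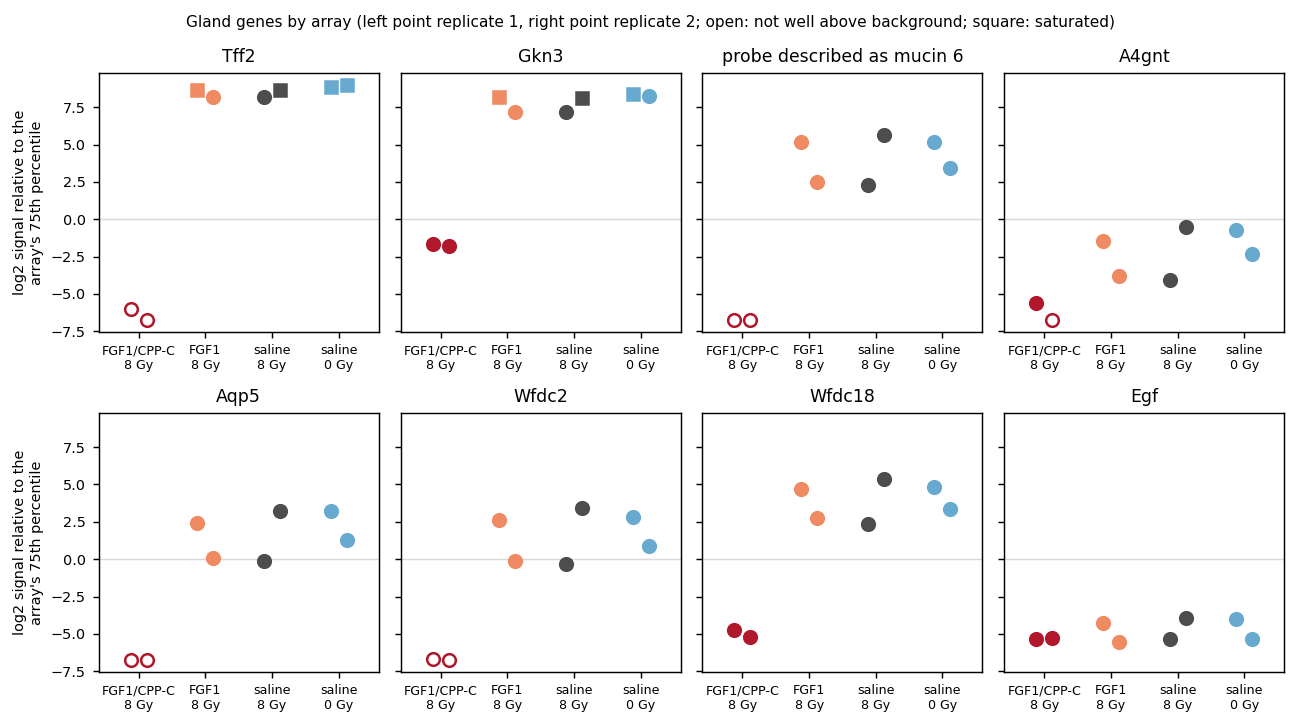
Level of each gene on each array, as log2 signal relative to the array's 75th percentile (vertical axis), by group (horizontal axis), with replicate 1 as the left and replicate 2 as the right point of each group. Open circles were not well above background and squares were saturated. Tff2 lies at -6.02 and -6.74 on the FGF1/CPP-C arrays and between 8.15 and 8.99 on the other 6, while the Egf points overlap.

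In the 3 comparisons of FGF1/CPP-C the 7 genes are described by their differences, with no test. The median log2 difference of the 7 genes was -8.29 against 8 Gy saline, -7.98 against FGF1 and -8.98 against 0 Gy saline, beside medians over all genes of 0.036, 0.017 and -0.023.

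The comparison of FGF1 with 8 Gy saline, both irradiated, bears on the unmodified growth factor. In the fit over all genes (limma, 4 group means on 8 arrays, Benjamini-Hochberg adjusted p under 0.05) none of the 7 genes passed, with limma adjusted p of 1 for each and none with an unadjusted p under 0.05. Nor did any of the 21784 genes (0% called higher and 0% lower, 381 genes with an unadjusted p under 0.05, smallest adjusted p = 0.995). Tff2 differed by 0.00 ± 0.30 and Gkn3 by 0.03 ± 0.40 on the log2 scale (SE), with 1 array of each group saturated for both genes. The other 5 genes lay between -0.35 ± 1.34 (A4gnt) and -0.14 ± 1.11 (Wfdc18). On slide 1 all 7 genes were higher with FGF1, by 0.49 for Tff2 up to 2.96 for Wfdc2, and on slide 2 all 7 were lower, by -0.48 for Tff2 and -3.56 for Wfdc2. The means therefore combine opposite differences, and standard errors above 1 for A4gnt, Aqp5, Wfdc2 and Wfdc18 leave differences of several fold undetectable with these arrays. The standard errors share the spread of all 4 groups, here and in the next comparison. The FGF1/CPP-C arrays, at or near the floor, differed by 0.0 for Aqp5 and 0.05 for Wfdc2, so these errors may be too small. For Tff2 and Gkn3, saturation may lower them as well.

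The comparison of 8 Gy saline with 0 Gy saline shows the gland genes after carbon ions alone. None of the 7 genes passed limma or had an unadjusted p under 0.05, where 0.0919% of 21774 genes passed as lower and 0.331% as higher. Gkn3 differed by -0.64 ± 0.40 (limma adjusted p = 0.593), by -1.18 on slide 1 and -0.11 on slide 2. On slide 2 the 8 Gy saline array was saturated for Gkn3 and the 0 Gy saline array was not, so the direction there is not known. Tff2 differed by -0.52 ± 0.30 (limma adjusted p = 0.56), by -0.70 on slide 1 and -0.35 on slide 2. Both 0 Gy saline arrays and 8 Gy saline replicate 2 were saturated for Tff2. The size of that difference is therefore not known, nor is its direction on slide 2. A4gnt (-0.76 ± 1.34), Aqp5 (-0.69 ± 1.32), Wfdc2 (-0.29 ± 1.46) and Wfdc18 (-0.25 ± 1.11) were lower on slide 1 and higher on slide 2. Egf differed by 0.03 ± 0.67. The median over the 7 genes was -0.52, beside -0.053 over all genes.

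**Figure D2:**
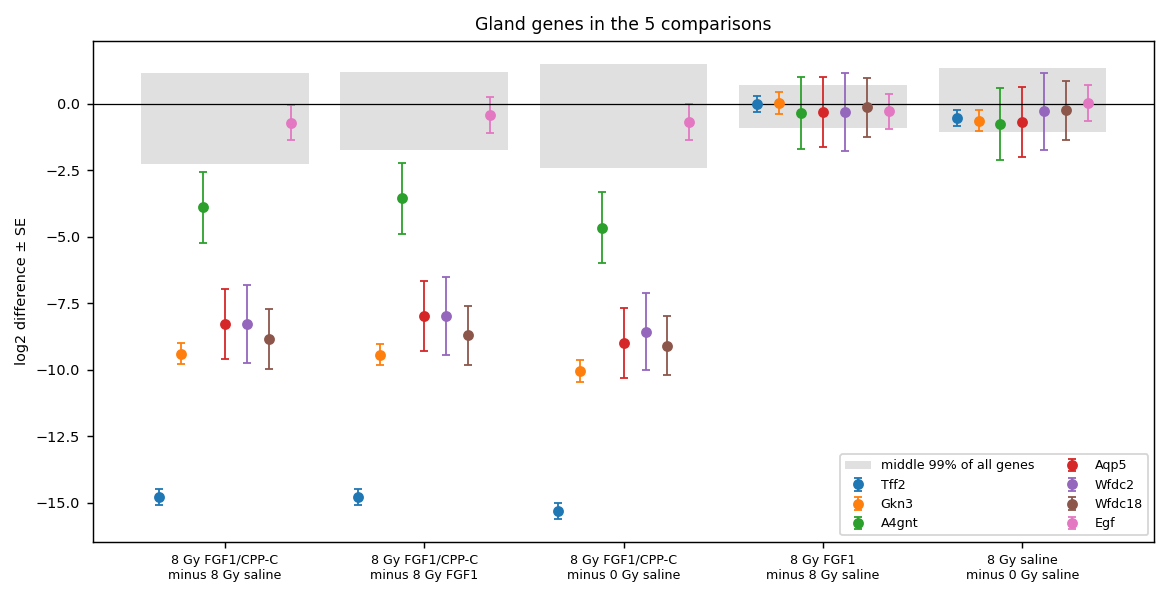
Log2 difference of each of the 7 genes (points, with the limma standard error as bars) in the 5 comparisons along the horizontal axis, with the first-named group minus the second. Grey boxes span the middle 99% of all genes. In the 3 comparisons of FGF1/CPP-C, 6 genes lie below the box and Egf inside it, and in the others all 7 lie near 0.

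The 6 arrays without FGF1/CPP-C differed widely among themselves in 4 of the 7 genes. Over these arrays Wfdc2 spanned 3.73 log2 units, A4gnt 3.55, Aqp5 3.38 and Wfdc18 2.99, where the median gene spanned 0.48. Only 0.398% of genes had a range as large as that of Wfdc2, and 0.811% as large as that of Wfdc18. Tff2 spanned 0.83 and Gkn3 1.18, with their highest arrays saturated, and Egf 1.62. Those 4 genes ranked the arrays alike, with 8 Gy saline replicate 2 highest, then 0 Gy saline replicate 1, FGF1 replicate 1, 0 Gy saline replicate 2, FGF1 replicate 2 and 8 Gy saline replicate 1. Over the 8 arrays, the pairwise r lay between 0.84 and 1 among the genes other than Egf and between 0.43 and 0.80 for Egf with each of them. The arrays share a slide in sets of 4, and the FGF1/CPP-C arrays weigh heavily in these r values.

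**Figure D3:**
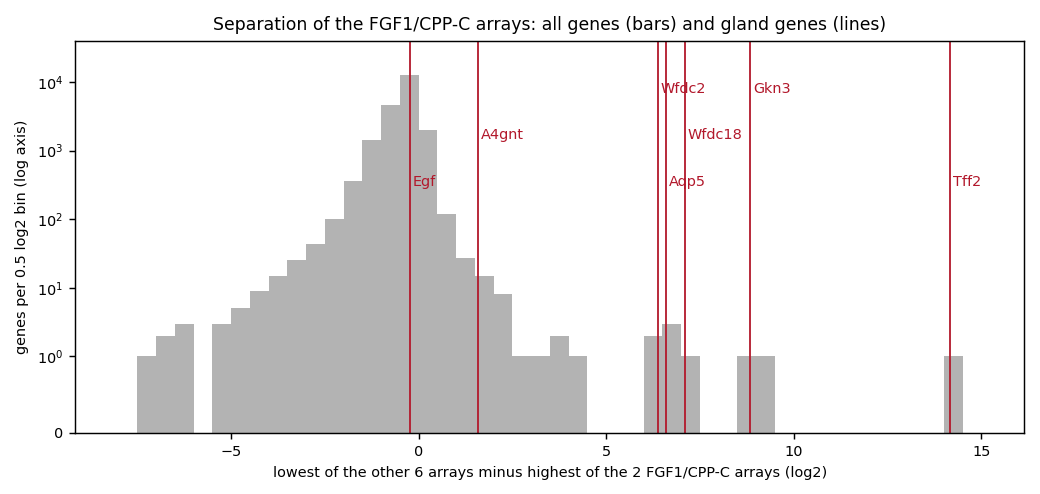
Number of genes (bars, log axis, bins of 0.5) by the distance from the higher FGF1/CPP-C array up to the lowest of the other 6 arrays, in log2 units, over 21587 genes with a value on all 8 arrays. Lines mark the gland genes. Tff2 (14.17), Gkn3 (8.84), Wfdc18 (7.10), Aqp5 (6.59) and Wfdc2 (6.38) stand far right of the bulk, A4gnt at 1.57 near its edge, and Egf at -0.24 within it.

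Stomach antrum markers moved with part of this pattern. Of 15 listed, 13 were measured, and their median level was -4.45 and -5.40 on the FGF1/CPP-C arrays, 1.07 and -4.04 on the FGF1 arrays, -3.77 and 2.06 on the 8 Gy saline arrays, and 1.5 and -3.39 on the 0 Gy saline arrays. Their summed level, on the log2 scale, was 1.74 and 1.69 with FGF1/CPP-C, 8.45 and 3.32 with FGF1, 3.21 and 9.09 with 8 Gy saline, and 8.54 and 3.68 with 0 Gy saline. The high arrays were FGF1 replicate 1, 8 Gy saline replicate 2 and 0 Gy saline replicate 1, which are also the 3 highest for Aqp5, Wfdc2, Wfdc18, A4gnt and Egf.

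The antrum genes were not uniform on the remaining arrays without FGF1/CPP-C. Gkn2, a gastrokine of gastric surface cells, was at -5.68 and -6.57 on the FGF1/CPP-C arrays, and at -6.06 on FGF1 replicate 2, -5.13 on 8 Gy saline replicate 1 and -5.30 on 0 Gy saline replicate 2. The surface mucin gene Muc5ac was at -3.93 and -4.63 on the FGF1/CPP-C arrays and at -4.54, -3.77 and -3.99 on those 3 arrays in the same order, and gastrin, Gast, at -4.45 and -5.40 and at -4.75, -4.30 and -3.98. For these genes, the FGF1/CPP-C arrays and those 3 arrays overlapped. Ctse, which encodes cathepsin E, was at -1.32 and -1.96 on the FGF1/CPP-C arrays and at 1.26, 0.79 and 1.19 on the 3 arrays. The sulfotransferase gene Sult1c2 was at -0.46 and -0.19 on the FGF1/CPP-C arrays and at 1.53, 1.77 and 2.14 on the 3 arrays. Anxa10, an annexin gene, was at -3.98 and -2.65 on the FGF1/CPP-C arrays and at 0.50, -0.21 and 0.67 on the 3 arrays. These antrum genes were thus measured on the 3 arrays at levels above those on the FGF1/CPP-C arrays.

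Of the 13 antrum genes, 6 were lower on both FGF1/CPP-C arrays than on all 6 others: Tff1, Pgc, Ctse, Anxa10, Vsig1 and Sult1c2. Over all genes the share was 10%. Trefoil factor 1, Tff1, of gastric surface mucus, lay at the floor on both FGF1/CPP-C arrays, at 7.86 and -0.44 with FGF1, -0.71 and 8.17 with 8 Gy saline, and 7.92 and 0.84 with 0 Gy saline. The progastricsin gene Pgc, a pepsinogen of gastric gland cells, was at -6.13 and -5.98 with FGF1/CPP-C, 1.00 and -1.57 with FGF1, -1.70 and 2.06 with 8 Gy saline, and 1.5 and -0.41 with 0 Gy saline.

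None of the 13 antrum genes passed the limma test in any of the 5 comparisons. Over all genes, 0.00918% of 21783 passed as lower with FGF1/CPP-C than with 8 Gy saline, 0.00918% of 21797 than with FGF1 and 0.771% of 21784 than with 0 Gy saline. An unadjusted p under 0.05 was seen for 7, 5 and 5 antrum genes in these comparisons, beside 11.9%, 9.02% and 22.1% of all genes. Their median log2 differences were -3.75, -3.12 and -3.32.

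On the 3 arrays without FGF1/CPP-C that had low antrum medians, Tff2 was at 8.15 or above and Gkn3 at 7.18 or above. A4gnt was at -3.79 on FGF1 replicate 2, -4.06 on 8 Gy saline replicate 1 and -2.31 on 0 Gy saline replicate 2, and Egf was at -5.52, -5.32 and -5.31. On 8 Gy saline replicate 1 and 0 Gy saline replicate 2, Aqp5 was at -0.145 and 1.256, Wfdc2 at -0.31 and 0.872, and Wfdc18 at 2.354 and 3.391. Gkn3 was at 7.184 and 8.226 there, and Tff2 at 8.156 and 8.986, the latter saturated. Each of the 7 genes thus lay lower on that 8 Gy saline array, with Egf almost level. Set against these 3 arrays alone, the median difference of the 7 gland genes was -6.60 against 8 Gy saline, -6.80 against FGF1 and -8.0 against 0 Gy saline. The part of stomach tissue in the low values of the gland genes was not tested.

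Pancreatic acinar enzymes were highest on arrays that also had high antrum markers, but were not high on FGF1 replicate 1. The median of 14 measured was -1.61 and -3.53 on the FGF1/CPP-C arrays, -2.63 and -3.47 on the FGF1 arrays, -3.09 and 2.82 on the 8 Gy saline arrays, and 5.29 and -3.13 on the 0 Gy saline arrays. They were high on 8 Gy saline replicate 2 and 0 Gy saline replicate 1, and none passed limma in any comparison, with 0 at an unadjusted p under 0.05. FGF1/CPP-C replicate 1, with low antrum markers, came next by median. On it the amylase gene Amy2a5 was at 0.76 and Cpa1 at -1.25, where both were at -6.74 on replicate 2. In FGF1/CPP-C against FGF1, 11 of the 14 were positive and 3 negative, with a median of 0.65. In FGF1/CPP-C against 8 Gy saline and 0 Gy saline all 14 were negative, with median log2 differences of -2.46 and -3.49. With 1 of 6 listed corpus markers measured, the acid-secreting stomach was not assessed.

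Intestinal lists showed smaller differences. Goblet cell markers had a median of 4.83 and 4.54 on the FGF1/CPP-C arrays and between 4.70 and 5.11 on the others, and enterocyte markers 6.93 and 6.86 with FGF1/CPP-C and between 6.06 and 6.63 on the others. The 4 measured markers of Paneth cells, the antimicrobial cells of the crypt base, had a median of 4.96 and 4.93 with FGF1/CPP-C and between 3.94 and 4.63 on the others. No gene of these lists passed limma in any comparison. In FGF1/CPP-C against 8 Gy saline, 1 of 8 goblet, 5 of 13 enterocyte and 4 of 4 Paneth genes had an unadjusted p under 0.05, beside 11.9% of all genes, and in FGF1/CPP-C against 0 Gy saline 0, 6 and 2 did, beside 22.1%. The median log2 differences from 8 Gy saline were 0.11, 0.35 and 0.67. Lyz1, the lysozyme gene of Paneth cells, was at 6.35 and 6.22 with FGF1/CPP-C and between 5.33 and 6.05 on the others. The 5 measured ileum markers had a median of -3.20 and -3.45 with FGF1/CPP-C and between -3.53 and -2.96 on the others, and none passed or had an unadjusted p under 0.05. Muc2, the gel-forming mucin of goblet cells, was at 4.44 and 4.08 with FGF1/CPP-C and between 3.81 and 4.42 on the others, and Tff3, their trefoil peptide, at 7.77 and 7.50 with FGF1/CPP-C and between 7.40 and 7.76 on the others. Klk1, on the same goblet list, lay lower on both FGF1/CPP-C arrays, at 2.08 and 1.79, than on the others, at 2.69 to 5.27. Against 8 Gy saline, 3 of the 8 goblet markers were negative and 5 positive.

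**Figure D4:**
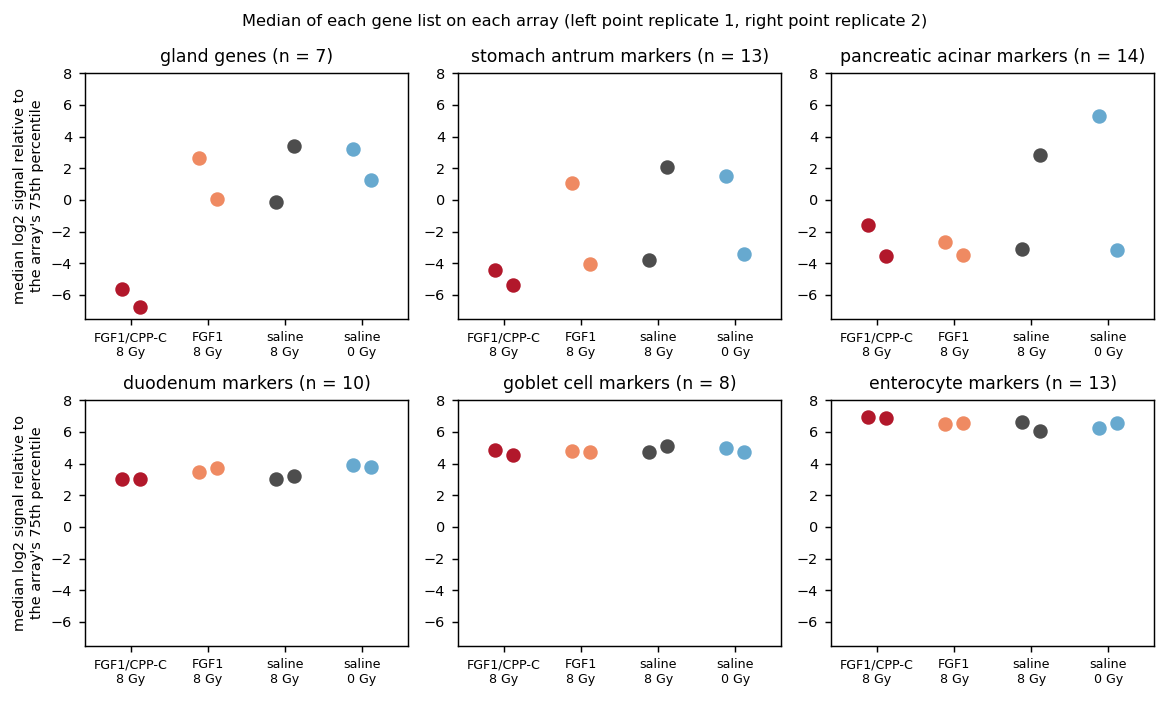
Median level of 6 gene lists on each array, as log2 signal relative to the array's 75th percentile (vertical axis), by group (horizontal axis), with replicate 1 as the left and replicate 2 as the right point. The gland genes are lowest on the FGF1/CPP-C arrays, at -5.63 and -6.74, antrum markers are high on 3 other arrays and acinar markers on 2, and goblet and enterocyte markers vary little.

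Of 14 other genes reported in Brunner glands or in cells that secrete bicarbonate and mucus, 4 passed as lower with FGF1/CPP-C than with 0 Gy saline and none as higher, where 0.771% and 1.23% of all genes did. The median log2 difference of the 14 was -1.02, beside -0.023 over all genes. The 4 were Nkx6-3 (-2.12 ± 0.35, limma adjusted p = 0.0486), a homeobox factor of antral and duodenal gland cells, and 3 genes of ion and bicarbonate transport. Cftr, the apical chloride and bicarbonate channel, differed by -0.99 ± 0.11 (limma adjusted p = 0.0221), the bicarbonate cotransporter gene Slc4a4 by -1.06 ± 0.13 (limma adjusted p = 0.0253) and the carbonic anhydrase gene Car2 by -2.0 ± 0.23 (limma adjusted p = 0.0493). Car2 had no usable spot on 8 Gy saline replicate 1 and 0 Gy saline replicate 1, so its value rests on fewer arrays. The list was drawn up with earlier results of these data known. These calls lie near the threshold: over up to 18 other settings all 4 genes stayed lower, while Nkx6-3 passed in 7 of 18 (limma adjusted p from 0.0232 to 0.29), Cftr in 10 of 18, Slc4a4 in 9 of 18 and Car2 in 6 of 16. With the replicate block, which is the slide, Cftr and Slc4a4 passed, and Nkx6-3 and Car2 did not. The comparison with 0 Gy saline differs in both dose and agent. Against 8 Gy saline, Cftr differed by -0.32, Slc4a4 by -0.85 and Car2 by -2.52, and against FGF1 by -0.18, -0.85 and -1.73. Between 8 Gy saline and 0 Gy saline, Cftr differed by -0.67 ± 0.11 (limma adjusted p = 0.095), Slc4a4 by -0.21 and Car2 by 0.52.

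Nkx6-3 was at 1.16 and -0.02 on the FGF1/CPP-C arrays and between 2.68 and 2.90 on the other 6, including the 3 with low antrum markers. Against 8 Gy saline it differed by -2.21 ± 0.35, limma adjusted p = 0.189, and against FGF1 by -2.33 ± 0.35, limma adjusted p = 0.184, so neither passed. The gel-forming mucin gene Muc5b was at -3.68 and -3.88 with FGF1/CPP-C, 1.27 and -1.85 with FGF1, -1.71 and 1.80 with 8 Gy saline, and 1.42 and -0.71 with 0 Gy saline. It did not pass in any comparison. Dmbt1, a mucosal defence protein, and Pigr, the immunoglobulin transporter, differed little, with Dmbt1 at 7.78 and 7.52 on the FGF1/CPP-C arrays and 7.55 to 7.90 on the others. No gene of the list passed in the other 4 comparisons.

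Of 16 genes that build, fold or export mucins, 1 passed as lower with FGF1/CPP-C than with 0 Gy saline, the fucosyltransferase gene Fut2 (-2.30 ± 0.33, limma adjusted p = 0.0363), with a list median of -0.64. Over all genes, 0.771% passed as lower in that comparison. Fut2 was lower in all 18 other settings and passed in 8 of them, but not with the replicate block. Fut2 was at -4.49 on both FGF1/CPP-C arrays and between -2.64 and -0.45 on the others. Agr2, a disulfide isomerase needed for mucin folding, was at 4.02 and 3.81 with FGF1/CPP-C, 6.30 and 4.83 with FGF1, 4.81 and 7.05 with 8 Gy saline, and 6.88 and 5.76 with 0 Gy saline, and did not pass. The transcription factor gene Spdef was at 1.87 and 1.70 with FGF1/CPP-C, 3.64 and 2.47 with FGF1, 2.11 and 4.42 with 8 Gy saline, and 4.64 and 3.15 with 0 Gy saline, and did not pass either. Of the 16, 10 lay lower on both FGF1/CPP-C arrays than on all others, where 10% of all genes did. Against 0 Gy saline, 12 of the 16 were negative and 4 positive. An unadjusted p under 0.05 was seen there for 5, beside 22.1% of all genes. The glycosyltransferase gene B3gnt6 was higher there, by 1.41 ± 0.24 (limma adjusted p = 0.0537). It also differed by 1.2 between 8 Gy saline and 0 Gy saline.

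Genes higher in duodenum than in distal intestine were also listed, as Brunner glands are duodenal. Of 10 measured, 2 passed as lower with FGF1/CPP-C than with 0 Gy saline: the calcium channel gene Trpv6 (-2.12 ± 0.13, limma adjusted p = 0.00571) and the calcium-binding gene S100g (-0.95 ± 0.12, limma adjusted p = 0.0281). Over 18 other settings both stayed lower, and Trpv6 passed in 13 and S100g in 8. With the replicate block Trpv6 passed and S100g did not. Over all genes, 0.771% passed as lower than with 0 Gy saline. An unadjusted p under 0.05 was seen there for 6 of the 10, beside 22.1% of all genes. By array, 5 of the 10 lay lower on both FGF1/CPP-C arrays than on all others with a value, where 10% of all genes did. Cybrd1 and Slc40a1 of this list differed by -1.4 ± 0.42 and -0.95 ± 0.2 from 0 Gy saline, and neither passed. Of the 10, 6 were negative and 4 positive. Trpv6 was at 1.95 and 1.78 with FGF1/CPP-C, 3.37 and 3.14 with FGF1, 3.11 and 3.22 with 8 Gy saline, and 3.89 and 4.08 with 0 Gy saline. Pdx1 and Gata4, transcription factors of the proximal intestine, did not pass, with Pdx1 at 1.45 and 1.33 on the FGF1/CPP-C arrays and 1.23 to 1.94 on the others, and Gata4 at 2.84 and 2.86 on the FGF1/CPP-C arrays and 2.30 to 2.87 on the others. Whether the arrays sampled the same stretch of intestine was not tested.

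Relatives of the gland genes gave few calls. Of 9 measured genes with whey acidic protein domains, Wfdc1 passed as lower with FGF1/CPP-C than with 0 Gy saline (-0.68 ± 0.10, limma adjusted p = 0.0416), and of 8 mucin genes, the membrane mucin gene Muc4 did (-1.58 ± 0.21, limma adjusted p = 0.0288). Each passed in 8 of 18 other settings, and neither with the replicate block. Against 0 Gy saline, 6 of the 9 were negative and 3 positive, and 6 of the 8 mucin genes were negative and 2 positive. Wfdc21 was higher there, by 1.41 ± 0.34 (limma adjusted p = 0.0974). It was not well above background on 8 Gy saline replicate 2 and 0 Gy saline replicate 1. Over all genes, 0.771% passed as lower in that comparison. None of 7 other aquaporins and none of 9 ligands and receptors of the EGF receptor family passed limma in any comparison, with 1 and 4 of them at an unadjusted p under 0.05 in FGF1/CPP-C against 0 Gy saline, beside 22.1% of all genes. Aqp8 was nevertheless higher on both FGF1/CPP-C arrays, at 3.01 and 4.04, than on the others, at -1.41 to 1.56. Against 8 Gy saline, 3 of the 7 aquaporins were positive and 4 negative. Of the 4 other trefoil factors and gastrokines, Tff1, Tff3, Gkn1 and Gkn2, none passed in any comparison. The receptor gene Egfr was at 0.42 and 0.13 on the FGF1/CPP-C arrays and between -0.24 and 0.38 on the others.

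The 10 genes whose levels followed the mean of the gland genes most closely over the 8 arrays, by Pearson's r, were Pcsk6 (0.987), Sftpd (0.983), Ctse (0.981), Tmem213 (0.981), Adgrg6 (0.979), Pgc (0.978), Sult1c2 (0.977), Alcam (0.975), Afm (0.974) and Fabp3 (0.973). Of these, Ctse, Pgc and Sult1c2 stand on the antrum list. Sftpd, which encodes the collectin surfactant protein D, lay at the floor on both FGF1/CPP-C arrays, at -0.58 and -2.88 with FGF1, -2.78 and 0.17 with 8 Gy saline, and -0.21 and -1.70 with 0 Gy saline. The ranking is a description of these arrays, in which the FGF1/CPP-C arrays set most of the spread.

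Promoter windows of 250 bases before the start site were read from RefSeq (GRCm38.p6) for the 8 listed genes, Egf included, to show what these genes share by sequence. Of these, 7 had a window, and Tff2 was not matched. Short motifs were searched on both strands, and no match in these windows overlapped another. The TATA box, TATAAA, is in 12.4% of the 32851 windows of this length. The GATA motif, AGATAA, is in 9.99% of them and the homeobox motif, TAATTA, in 4.84%. The forkhead motif, spelled TGTTTAC here, is in 3.17%, the ETS motif, with the letters CCGGAA, in 12.0%, and the CDX motif, read as TTTATGG, in 2.43%. No motif was found in all of the windows. The 4 windows below hold a match, marked in capitals: the homeobox motif for Gkn3, the TATA box for Wfdc18, and the GATA motif for Muc6 and, on the other strand, for A4gnt. They lie at chr6:87388936-87389185 (minus strand), chr11:83708754-83709003 (plus), chr7:141655394-141655643 (minus) and chr9:99612252-99612501 (plus). Of the 2 Egf windows, 1 held the forkhead and ETS motifs. The Aqp5 and Wfdc2 windows held none of these motifs, and a match is a description of the letters.
Gkn3: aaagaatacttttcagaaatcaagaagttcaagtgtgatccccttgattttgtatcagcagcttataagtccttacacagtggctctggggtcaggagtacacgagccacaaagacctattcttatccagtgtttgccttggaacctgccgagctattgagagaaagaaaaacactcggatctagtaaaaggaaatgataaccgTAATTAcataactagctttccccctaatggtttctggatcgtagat
Wfdc18: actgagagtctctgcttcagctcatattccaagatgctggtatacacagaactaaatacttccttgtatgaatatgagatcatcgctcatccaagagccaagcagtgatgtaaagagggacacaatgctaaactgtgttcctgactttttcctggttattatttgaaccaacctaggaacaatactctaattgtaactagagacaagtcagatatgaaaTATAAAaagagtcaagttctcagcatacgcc
Muc6: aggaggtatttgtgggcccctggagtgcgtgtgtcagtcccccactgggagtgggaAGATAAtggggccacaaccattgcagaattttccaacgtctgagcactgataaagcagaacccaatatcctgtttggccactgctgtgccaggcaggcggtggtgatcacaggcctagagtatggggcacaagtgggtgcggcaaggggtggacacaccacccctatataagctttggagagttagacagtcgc
A4gnt: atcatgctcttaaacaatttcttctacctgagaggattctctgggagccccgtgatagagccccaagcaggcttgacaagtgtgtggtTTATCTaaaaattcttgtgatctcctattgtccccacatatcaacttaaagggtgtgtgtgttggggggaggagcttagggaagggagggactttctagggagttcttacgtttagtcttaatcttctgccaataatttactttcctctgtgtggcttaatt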

How the data were processed

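RNA from 8 small intestine samples was hybridised to 1-colour Agilent arrays. Per the file headers, Agilent Feature Extraction 9.5.3.1 made the deposited processed signal, a background-subtracted intensity on a linear scale, and probe positions are those of mm9. The deposited series matrix holds the same intensity values for most spots well above background, with a ratio of 1 and no centring, and column medians of 674.5 to 849.4. The processed signal was divided by each array's 75th percentile, floored at -6.74 on the log2 scale and averaged over the spots of a probe. The 1377 control spots were left out, as were those of the other 43020 spots that had an outlier mark on an array. A probe was kept (27469 of 39429) where some group had it well above background on each of its arrays, and each gene took its brightest probe. Of the probes, 28330 were named through an accession in RefSeq, 2204 through a symbol and 8895 kept the name in the files.

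The fit used limma 3.58.1 under R 4.3.3, with data.table at version 1.17.8, on 4 group means, with 4 residual degrees of freedom and Benjamini-Hochberg adjustment over all genes. With 2 arrays per group, an exact permutation test of a single gene cannot go below p = 0.333. The fit was tested on simulated data. Plots were made in Python 3.11.15 using matplotlib 3.10.9. The genes and lists were chosen with earlier results of these data known. Named genes were all gland genes, per list up to 4 that passed or the 2 of smallest p, list genes needed to describe the antrum, acinar, duodenum and Brunner gland lists by array, and the 10 most alike over the arrays. Muc2, Tff3, Klk1, Aqp8, Egfr, Agr2, Spdef, B3gnt6 and Wfdc21 were chosen after their values were seen. Motifs were searched in 250 bases before the start site, leaving out the bases after it that had been planned. The series matrix values, quantile normalization, normexp correction (offset 50), 2 other filters, the mean of probes, a fit to the 2 groups compared, a replicate block, trend and robust moderation and arrays left out were alternatives.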

Additional observations from a re-analysis of the deposited data

How the results depend on the processing

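Over the alternatives, 0 gland genes passed in FGF1 against 8 Gy saline and in 8 Gy saline against 0 Gy saline. The number of genes lower on both FGF1/CPP-C arrays than on the others, 6 of 7, was 1 of 2 with the series matrix and 3 of 4 with the filter on all 8 arrays.

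The median difference of the gland genes in FGF1/CPP-C against 8 Gy saline, FGF1 and 0 Gy saline, in this order, was -6.35, -6.03 and -6.62 with normexp, and -4.77 against 8 Gy saline with the series matrix, where it rests on 2 genes. Leaving out 1 array at a time, it ranged from -9.98 to -6.60, from -9.36 to -6.80 and from -9.80 to -8.0. It ranged from -1.63 to 1.36 in FGF1 against 8 Gy saline and from -1.74 to 1.00 in 8 Gy saline against 0 Gy saline, changing sign with the array left out. Egf differed by -0.43 between FGF1/CPP-C and FGF1 with all arrays, by 0.20 without the 3 arrays with high antrum markers, and by -1.05 to 0.20 leaving out 1 array at a time, with the sign changed without FGF1 replicate 1. Apart from the construction of an alternative named above, the cause was not tested.

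Replicate numbers share a slide, and nothing says that they share an animal. Deviations of same-numbered arrays correlated with r from -0.52 to 0.54 between groups. With the replicate block, the median differences stayed at -8.29, -7.98 and -8.98. Counts over all genes in the 5 comparisons were 2, 2, 436, 0 and 92, and with the replicate block 2, 2, 174, 0 and 37. They were 5, 13, 513, 0 and 112 with quantile normalization, 4, 10, 563, 0 and 136 with normexp, and 2, 1, 10, 0 and 0 with only the 2 groups compared. They were 2, 8, 711, 0 and 143 with trend and robust moderation, 7, 11, 440, 2 and 97 with the mean of probes, 5, 2, 258, 0 and 42 with no filter, 1, 1, 466, 0 and 104 with the filter on all 8 arrays, and 0, 0, 298, 0 and 66 with the series matrix. Without the 3 arrays no such counts are given. Each group other than FGF1/CPP-C then kept 1 array, which the fit assumed to vary like the FGF1/CPP-C arrays. Leaving out 1 array gave 2 to 7, 2 to 5, 1 to 846, 0, and 0 to 41. Signals not well above background with FGF1/CPP-C, and saturated signals for Tff2 and Gkn3 elsewhere, limit what size of difference could be measured.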
